A study of Ovis aries with 3 samples.

Results

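MicroRNAs of the left ventricle were compared between sheep that had recovered from pacing-induced heart failure (HF-R) and normal control sheep (Cont), to describe what still lay off the control level after pacing had ended. Of 621 distinct miRNA entries counted in the series, 356 averaged 10 counts or more over Cont, HF and HF-R, and all 356 are described here. They lie at 298 separate loci, since 87 of them overlap another one on the same strand. The other 265 distinct entries averaged less. The HF counts helped to choose the entries through this mean, but no ratio did.

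Each condition was 1 small RNA library made from pooled left ventricular RNA of Coopworth ewes. Cont pooled 4 sheep without treatment. HF pooled 6 sheep after rapid left ventricular pacing, which one label gives as about 220 bpm over 13 days and another as 225 bpm over 14 days. HF-R pooled 4 sheep in which such pacing had been stopped, 26 days earlier by one label and 14 days earlier by another. By the study's methods all sheep had a thoracotomy for instruments, and the HF and HF-R sheep also carried a pacing electrode in the ventricular wall, so pacing history and electrode cannot be told apart. With 1 pooled library a side there was no spread between sheep to test against, and every difference is one between these libraries.

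MicroRNAs are short RNAs, cut from a hairpin precursor, that guide silencing proteins to messenger RNAs. Pairing rests mainly on the seed, the bases near the 5′ end, so miRNAs that share a seed are grouped as a family. In the heart, miR-1, miR-133, miR-208 and miR-499 are known as muscle miRNAs. MiR-21, miR-199a and miR-214 are well known from fibroblasts and fibrosis, and miR-144 and miR-451 from red blood cells.

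The sequences below belong to the entries that the results turn on, with a relative of the same seed for the miR-208 and miR-30 families. Each is the deposited reference sequence on Oar v4.0, 5′ to 3′, with the seed (bases 2 to 8) in capitals. These were higher in HF-R, except miR-208b-3p, which is shown as the relative of miR-208a-3p.
oar-miR-21: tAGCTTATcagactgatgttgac
oar-miR-221: aGCTACATtgtctgctgggttt
oar-miR-23a: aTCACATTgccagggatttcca
oar-miR-23b: aTCACATTgccagggatt
hsa-/mmu-/rno-miR-365a-3p: tAATGCCCctaaaaatccttat
hsa-/mmu-/rno-miR-214-3p: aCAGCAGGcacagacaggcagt
hsa-/mmu-miR-208a-3p: aTAAGACGagcaaaaagcttgt
hsa-/mmu-/rno-miR-208b-3p: aTAAGACGaacaaaaggtttgt

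These were lower in HF-R, except oar-miR-30c, which is shown as the relative of miR-30a-5p that stayed at the control level.
hsa-miR-378a-3p: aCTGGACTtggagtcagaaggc
hsa-/mmu-/rno-miR-128-3p: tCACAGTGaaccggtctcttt
hsa-/mmu-/rno-/oar-miR-181a-5p: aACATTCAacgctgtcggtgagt
oar-miR-30a-5p: tGTAAACAtcctcgactggaagc
hsa-/mmu-/rno-miR-30e-5p: tGTAAACAtccttgactggaag
oar-miR-30c: tGTAAACAtcctacactctca
oar-miR-10b: aCCCTGTAgaaccgaatttgtg
hsa-/mmu-/rno-miR-451-5p: aAACCGTTaccattactgagtt

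The distinct entries summed to 4711131 counts for Cont, 6154795 for HF and 5990078 for HF-R. Counts were divided by these totals to give CPM, and each HF-R/Cont ratio of CPM carries an exact 95% interval (Clopper-Pearson). The interval covers counting error only. Reads copied by PCR are not independent molecules, so it may be too narrow even for that error. An entry was called higher at a ratio of 1.5 or more, or lower at the inverse of 1.5 or less, where the interval also excluded 1. An entry holds reads that match its sequence over the full length (perfect match) or over 70 to 99% of it (partial match). Where 3 counts are given for a miRNA below, they stand in the order Cont, HF, HF-R.

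In HF-R, miR-21, miR-221 and the miR-23 pair stood above the control level, while miR-378a-3p, miR-128-3p, miR-181a and part of the miR-30 family stood below it. Of 356 entries, 17 (4.78%) were called higher, 40 (11.2%) lower and 57 (16%) either way, which left 299 near control or too scarce to call. The ratio lay within 1.2-fold of control for 148 entries (41.6%), the quartiles of the ratio were 0.743 and 1.2, and the median log2 ratio was -0.03. The ratio was above 1 for 166 entries and below 1 for 190. A further 107 entries had an interval that excluded 1 but a ratio inside the limits, and 38 had a ratio past the limits but an interval that held 1. Every one of the 356 had a count in both Cont and HF-R. In pooled tissue, fewer cells of a type and less RNA in each cell cannot be told apart.

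The balance of calls moved with the scaling. The miR-1 entries held 26.3% of the Cont counts and 32.4% of the HF-R counts. With totals that leave them out, 28 entries were called higher and 24 lower, and the median log2 ratio of all entries shifted by 0.125. Raw counts gave 71 higher and 10 lower, with a shift of 0.35. Other scalings moved the balance the other way. Totals of the perfect-match tables gave 14 higher and 54 lower, with a shift of -0.098. Each deposited table scaled to its own total gave 16 higher and 54 lower, with a shift of -0.094. Over the 5 scalings tried other than raw counts, 14 entries were called higher and 24 lower under each of them. Of the 13 lower entries that averaged 1000 counts or more, 4 kept their call with totals without miR-1, both forms of miR-378a-3p, miR-128-3p and oar-miR-127. Medians of miRNA lists are read below against the median of all entries, which moves by the same shift where each library has 1 total. With each deposited table scaled to its own total the difference between them can move. It went from -0.32 to -0.24 for the miR-30 family and from 0.35 to 0.47 for the miR-29 family.

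**Figure D1:**
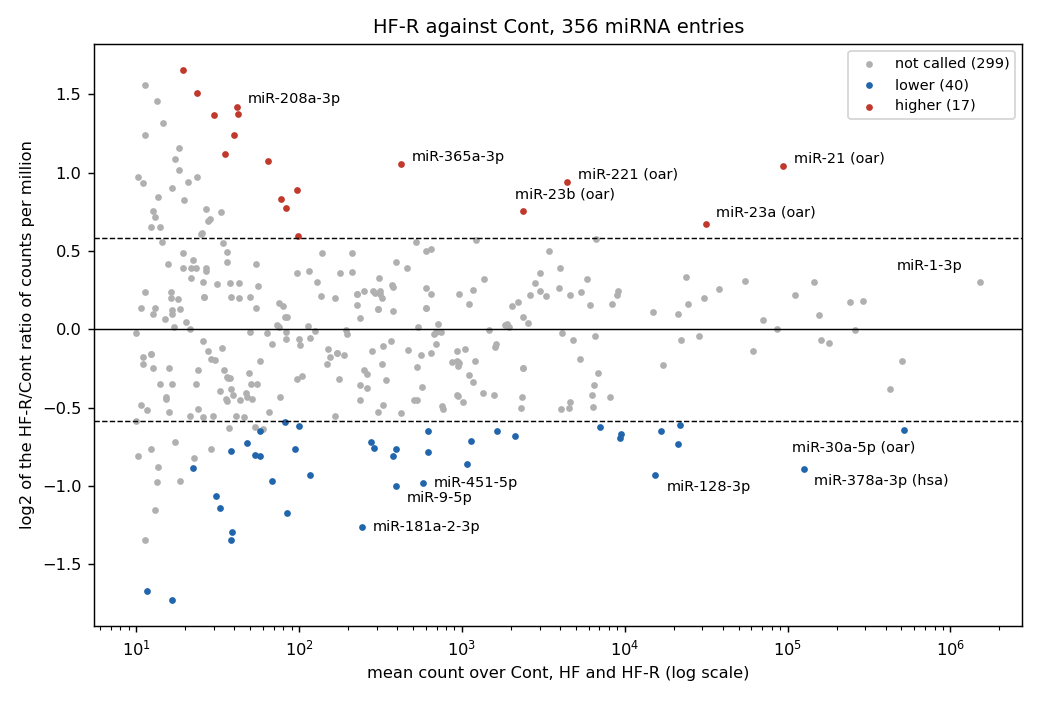
The log2 HF-R/Cont ratio of CPM (vertical axis) is plotted against the mean count over Cont, HF and HF-R (horizontal axis, log scale) for 356 entries, red where called higher (17), blue where called lower (40) and grey where not called (299). Dashed lines mark 1.5-fold either way, most entries lie between them, and miR-21, miR-221, miR-23a and miR-23b are the 4 higher entries that average 1000 counts or more.

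Most higher calls were scarce miRNAs. Of the 17 higher entries, 12 averaged under 100 counts, and of the 40 lower entries 16 did, beside 164 of all 356 entries. Among the 94 entries that averaged 1000 counts or more, 4 were higher and 13 lower. The higher entries together took 1.58% of the Cont library, 2.32% of HF and 3.07% of HF-R. The lower entries took 16.7%, 14.2% and 10.3%. Because the calls set these groups, the direction between Cont and HF-R was given in advance. Oar-miR-21 held 139613 of the 183691 counts of the higher entries in HF-R. Oar-miR-30a-5p held 539538 of the 785992 counts of the lower entries in Cont.

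Oar-miR-21, which rises in many injured and fibrotic tissues, had 53224, 89870 and 139613 counts. It was lowest in Cont and highest in HF-R, with HF between them. The HF-R/Cont ratio was 2.06 (2.04 to 2.08), and the HF/Cont ratio, which shares the Cont library, was 1.29 (1.28 to 1.31). RefSeq places MIR21 within VMP1 in its annotation of the Rambouillet sheep.

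Oar-miR-221, a miRNA of endothelial and smooth muscle cells, had 2572, 4501 and 6285 counts and the same order of levels. Its ratio was 1.92 (1.84 to 2.01), with 1.34 (1.28 to 1.41) for HF/Cont. The other arm of the hairpin, miR-221-5p, was scarce, at 14, 30 and 46 counts and a ratio of 2.58 (1.40 to 5.09), and that call held for the 22 nt form alone. The 23 nt form had 39, 68 and 60 counts and a ratio of 1.21 (0.795 to 1.86). The 26 nt form had 69, 80 and 75 counts and a ratio of 0.855 (0.608 to 1.2). MiR-222-3p, the cluster partner of miR-221, was not called, with 263, 270 and 304 counts and a ratio of 0.909 (0.768 to 1.08). The endothelial list of 7 entries also holds oar-miR-10a and oar-miR-10b. On it 2 (28.6%) were higher, both arms of miR-221, and 1 (14.3%) was lower, oar-miR-10b. Over all entries 4.78% were higher and 11.2% lower. The list's median log2 ratio was 0.27.

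The miR-23 pair, from clusters with miR-27 and miR-24 that are active in endothelium and muscle, was highest in HF. Oar-miR-23a had 16634, 43794 and 33747 counts and a ratio of 1.60 (1.57 to 1.63), against 2.02 (1.98 to 2.05) for HF/Cont. With totals of the perfect-match tables its ratio was 1.49 and the call was lost. Oar-miR-23b had 1206, 3283 and 2586 counts and a ratio of 1.69 (1.57 to 1.81), against 2.08 (1.95 to 2.23). Both lay above Cont and below HF. The 18 bases of oar-miR-23b match those of oar-miR-23a with 0 mismatches, so shorter reads of miR-23a and miR-23b cannot be told apart. Hsa-/mmu-/rno-miR-23b-3p, a partial match, lay just under the limit with 281, 757 and 525 counts and a ratio of 1.47. The partners were nearer to control, with ratios of 1.14 for miR-27a-3p, 1.07 for miR-24-3p and 1.25 for miR-27b-3p. Of the 13 entries of the miR-23, miR-27 and miR-24 list, 2 (15.4%) were higher and 0 lower, beside 4.78% and 11.2% of all entries. The list's median log2 ratio was 0.18, beside -0.03 for all entries.

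Hsa-/mmu-/rno-miR-365a-3p, which is clustered with miR-193, had 202, 539 and 533 counts. Its level was 42.9 CPM for Cont, 87.6 for HF and 89.0 for HF-R, so HF-R stood where HF did, and the ratio was 2.08 (1.76 to 2.45). Mmu-miR-193b-3p was not called, with 83, 185 and 148 counts and a ratio of 1.40 (1.06 to 1.86). An entry named rno-miR-193b-5p was called, with 62, 115 and 119 counts and a ratio of 1.51 (1.10 to 2.09). The tables of each library give these counts to partial matches of rno-miR-193b-3p, and 11, 43 and 34 to rno-miR-193b-5p itself.

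**Figure D2:**
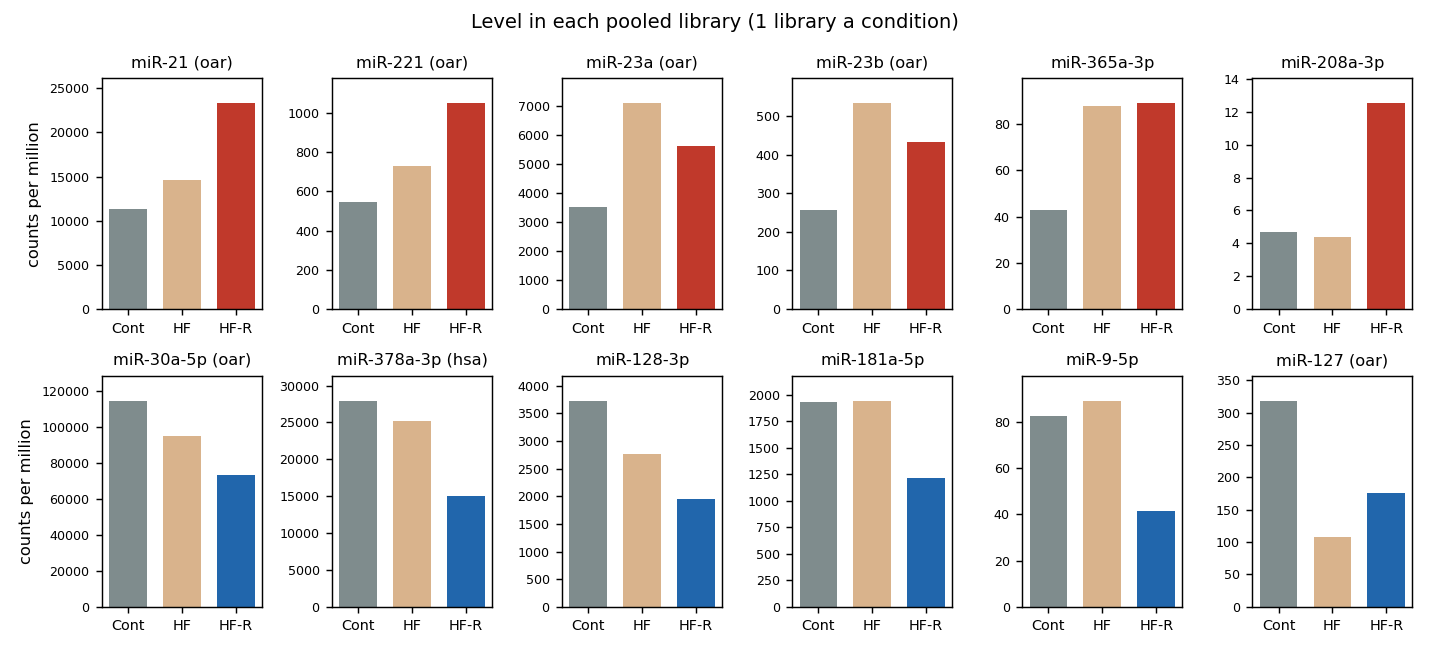
Bars give the level in CPM (vertical axes start at 0, each panel with its own scale) in the Cont, HF and HF-R libraries, 1 pooled library a condition and so without error bars, for 6 entries higher in HF-R (red) and 6 lower (blue). MiR-21 and miR-221 were highest in HF-R, miR-23a and miR-23b in HF, while miR-30a-5p, miR-378a-3p and miR-128-3p were lowest in HF-R with HF between.

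Both arms of miR-214, which is transcribed with miR-199a from a gene active in fibroblasts, were higher. MiR-214-3p had 37, 57 and 99 counts and a ratio of 2.10 (1.43 to 3.16). MiR-214-5p had 54, 109 and 127 counts and a ratio of 1.85 (1.34 to 2.59). A 21 nt form of miR-214-3p was higher as well, at 24, 55 and 61 counts and a ratio of 2.00 (1.23 to 3.35). MiR-199a-5p lay just short of the limit with 4302, 7497 and 8147 counts and a ratio of 1.49 (1.44 to 1.55), and its partial matches passed it at 1.73 (1.63 to 1.83). MiR-199b-5p, from another hairpin, had 1574, 2283 and 2218 counts and a ratio of 1.11 (1.04 to 1.18). Of the 4 entries of the fibroblast list 2 (50%) were higher and 0 lower, beside 4.78% and 11.2% of all entries. The median log2 ratio of the 4 entries was 0.73. Their summed level was 1267 CPM in Cont and 1768 in HF-R.

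MiR-208a-3p, encoded within the alpha myosin heavy chain gene, was the one entry of the heart muscle list that was called. It had 22, 27 and 75 counts, with HF-R apart from the others, and a ratio of 2.68 (1.65 to 4.53). Its 18 nt form had 13, 17 and 19 counts and a ratio of 1.15 (0.539 to 2.53). Partial matches of the 22 nt form had 84, 122 and 159 counts and a ratio of 1.49 (1.14 to 1.96). MiR-208b-3p, from the beta myosin heavy chain gene and with the same seed, was highest in HF, at 4316, 7873 and 6108 counts and a ratio of 1.11 (1.07 to 1.16).

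The abundant muscle miRNAs lay at or slightly above control. Hsa-/mmu-miR-1-3p, the most abundant entry, had 1207000, 1480052 and 1890620 counts and a ratio of 1.23 (1.229 to 1.235). Oar-miR-133 had 110044, 154172 and 172629 counts and likewise a ratio of 1.23, and miR-499a-5p, from a slow myosin gene, had 200857, 322724 and 254773 counts and a ratio of 0.998. Of the 16 entries of the list 14 had a ratio above 1, beside 166 of all 356 entries, and the list's median log2 ratio was 0.27. The 1 call among the 16 is 6.25%, beside 16% of all entries called either way. Some of the 16 are length forms of the same arm, so they are not all separate readings. With scarcer entries included, the heart muscle miRNAs made up 33.0% of Cont and 39.7% of HF-R, the tissue's own markers, while miR-206 of skeletal muscle had 24, 42 and 43 counts. The endothelial marker miR-126 was not analysed here.

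Scarce miRNAs made up the other higher calls. Oar-miR-200a and oar-miR-200b, known from epithelium, lie next to each other on chromosome 12 and were lowest in HF. Oar-miR-200a had 27, 10 and 89 counts and a ratio of 2.59 (1.67 to 4.15), and oar-miR-200b had 26, 8 and 72 counts and a ratio of 2.18 (1.37 to 3.55). Oar-miR-200c on chromosome 3 was lower instead, at 39, 46 and 29 counts and a ratio of 0.585 (0.349 to 0.970). All 3 are listed as partial matches, though the class behind oar- counts is not certain, and the epithelial markers, scarcer entries included, summed to 19.7 CPM in Cont and 31.7 in HF-R. The part of epithelial RNA in other ratios was not tested.

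MiR-29c-3p, of a family known to repress collagen genes, had 11, 76 and 33 counts, highest in HF, and a ratio of 2.36 (1.16 to 5.18). The abundant relatives were not called. Oar-miR-29a had 10039, 20893 and 13786 counts (ratio 1.08), and oar-miR-29b had 2291, 5903 and 3831 (ratio 1.32). All 6 entries of the family had a ratio above 1, beside 166 of all 356 entries, and the family's median log2 ratio was 0.32. Oar-miR-29a and hsa-/mmu-/rno-miR-29a-3p are forms of the same arm, so the 6 are not all separate readings.

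Some of the higher calls depend on which reads their names hold. MiR-3591-3p had 4, 38 and 16 counts and a ratio of 3.15 (1.01 to 12.9), and it lies antisense to the liver miRNA miR-122. Partial matches of miR-122-5p had 4, 39 and 16 counts, and perfect matches 3, 36 and 3. Rno-miR-3596d, opposite a let-7f entry, had 8, 34 and 29 counts and a ratio of 2.85 (1.27 to 7.22). MiR-3591-3p and miR-3596d had under 10 counts in Cont, and among the 325 entries with 10 or more in both Cont and HF-R, 15 were called higher instead of 17. Hsa-/mmu-/rno-let-7g-5p, a partial match 1 nt longer than oar-let-7g, had 50, 90 and 109 counts and a ratio of 1.71 (1.22 to 2.45). Oar-let-7g itself was not called, at 99345, 87913 and 146911 counts and a ratio of 1.16. MiR-382-3p had 50, 70 and 113 counts and a ratio of 1.78 (1.26 to 2.53), while the other arm, miR-382-5p, was at control with 183, 172 and 232 counts and a ratio of 0.997.

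**Figure D3:**
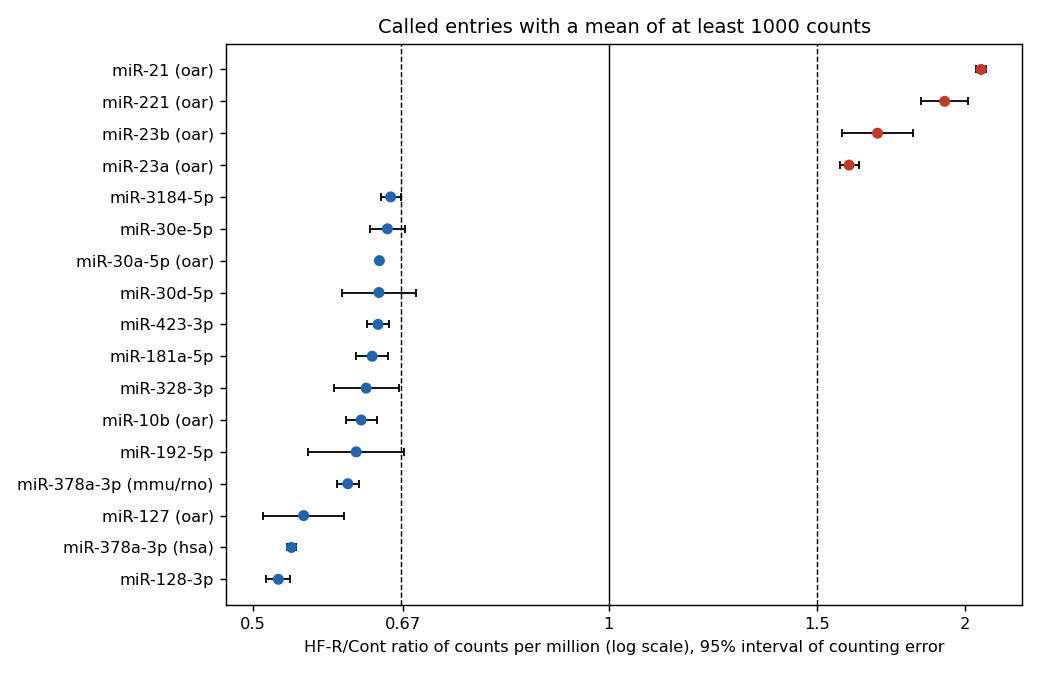
Points give the HF-R/Cont ratio of CPM (horizontal axis, log scale) with its 95% interval of counting error for the 17 called entries that average 1000 counts or more, red higher and blue lower, and dashed lines mark 1.5-fold either way. The 4 higher ratios run from 1.60 to 2.06 and the 13 lower ones from 0.526 to 0.654.

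MiR-378a-3p was the most abundant lower entry after miR-30a-5p. In human the miR-378a gene lies within PPARGC1B, a coactivator of mitochondrial metabolism, and the miRNA is abundant in muscle. Hsa-miR-378a-3p had 131555, 154925 and 90168 counts. HF lay near Cont at a ratio of 0.901 (0.895 to 0.908), and HF-R was lower at 0.539 (0.535 to 0.544). The form 1 nt shorter, named mmu-/rno-miR-378a-3p, had 19067, 30500 and 14586 counts, with HF above Cont and HF-R below it at 0.602 (0.589 to 0.615).

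MiR-378d had 77, 103 and 65 counts and a ratio of 0.664 (0.470 to 0.936). MiR-378b had 63, 52 and 46 counts and a ratio of 0.574 (0.384 to 0.853). The other arm, miR-378a-5p, stayed inside the limits with 1297, 1510 and 1243 counts and a ratio of 0.754 (0.697 to 0.815). Of the 5 entries of the list 4 (80%) were lower and 0 higher, beside 11.2% and 4.78% of all entries. The median log2 ratio of the 5 entries was -0.73. They are not separate measurements, since the shorter form matches the longer with 0 mismatches and miR-378d with 1, so reads can be shared.

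MiR-128-3p, known from brain and muscle, had 17556, 17058 and 11733 counts. Its level was 3726 CPM for Cont, 2772 for HF and 1959 for HF-R, and the ratio of 0.526 (0.513 to 0.538) was the lowest among the entries that average 1000 counts or more. MiR-181a-5p, of a family known from lymphocytes and muscle, had 9080, 11948 and 7283 counts. HF was at control (1.01, 0.980 to 1.04) and HF-R was lower, at 0.631 (0.612 to 0.651). The call was lost with totals that leave out miR-1 (0.688) and with each deposited table scaled to its own total (0.675).

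The opposite arms of the miR-181a hairpins were lower too. MiR-181a-2-3p had 323, 240 and 171 counts and a ratio of 0.416 (0.344 to 0.503), and miR-181a-3p had 54, 34 and 27 counts and a ratio of 0.393 (0.238 to 0.635). The relatives miR-181b-5p (0.775) and miR-181d-5p (0.932) were not called. Of the 7 entries of the family 3 (42.9%) were lower and 0 higher, beside 11.2% and 4.78% of all entries. The family's median log2 ratio was -0.37.

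The miR-30 family, abundant in heart muscle and known there to repress connective tissue growth factor, held both lower entries and entries near control. Oar-miR-30a-5p, the entry with the most counts after miR-1-3p, had 539538, 584625 and 438890 counts, or 11.5%, 9.50% and 7.33% of the libraries. Its ratio was 0.640 (0.637 to 0.642), with 0.829 (0.826 to 0.832) for HF/Cont. Hsa-/mmu-/rno-miR-30e-5p had 7161, 8109 and 5917 counts and a ratio of 0.650 (0.628 to 0.673), and hsa-/mmu-/rno-miR-30d-5p had 1661, 1934 and 1350 counts and a ratio of 0.639 (0.594 to 0.687). Both are partial matches that differ from oar-miR-30a-5p at 1 base of 22, so reads may be counted under a relative's name. Oar-miR-30d, listed as a perfect match, was not called, with 5603, 9230 and 5864 counts and a ratio of 0.823 (0.793 to 0.854).

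Relatives with 5 or 6 mismatches to miR-30a-5p were not called. Oar-miR-30c had 65426, 110217 and 83528 counts and a ratio of 1.00 (0.994 to 1.01). Oar-miR-30b had 3086, 6271 and 4574 counts and a ratio of 1.17 (1.11 to 1.22). Both were highest in HF. The other arm of the miR-30c hairpin, miR-30c-1-3p, was called lower on few reads, with 55, 77 and 40 counts and a ratio of 0.572 (0.371 to 0.875). Among the 8 entries with the miR-30 seed 3 were lower and 0 higher. Among all 15 entries of the family 6 (40%) were lower and 0 higher, beside 11.2% and 4.78% of all 356 entries. The family's median log2 ratio was -0.35. With totals that leave out miR-1, oar-miR-30a-5p was at 0.698 and miR-30e-5p at 0.709, both short of the limit of the call. Of the 6 calls 1 was left. With each deposited table scaled to its own total, oar-miR-30a-5p was at 0.684 and its call was lost too.

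Other abundant entries were called lower with the totals used here. Oar-miR-10b, which RefSeq places within HOXD4, had 9692, 10724 and 7610 counts and a ratio of 0.618 (0.599 to 0.636), while oar-miR-10a was not called at 0.710. MiR-423-3p had 17696, 18317 and 14356 counts and a ratio of 0.638 (0.624 to 0.652). MiR-3184-5p lies on the strand opposite miR-423-3p, with 22880, 23535 and 19024 counts and a ratio of 0.654 (0.641 to 0.667). Partial matches of miR-423-3p had 22951, 23588 and 19080 counts, so these calls are not separate. MiR-328-3p had 2201, 2443 and 1745 counts and a ratio of 0.624 (0.585 to 0.664). MiR-192-5p, a miRNA of liver, gut and kidney, had 1034, 1595 and 804 counts and a ratio of 0.612 (0.557 to 0.671). All 5 calls were lost with totals that leave out miR-1, where the ratios were 0.673 for oar-miR-10b, 0.696 for miR-423-3p, 0.713 for miR-3184-5p, 0.680 for miR-328-3p and 0.667, just short of the limit, for miR-192-5p.

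**Figure D4:**
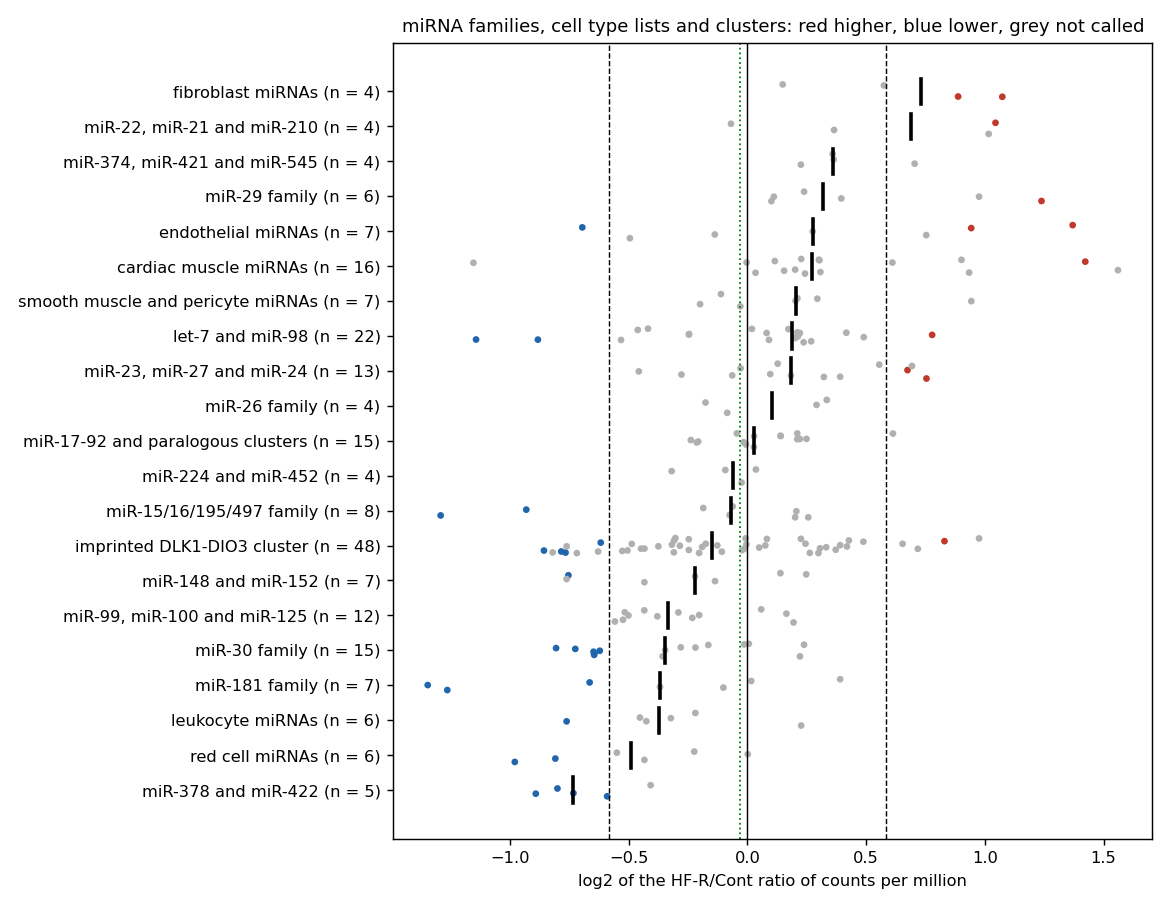
Each point is the log2 HF-R/Cont ratio of 1 entry (horizontal axis) in a miRNA family, cell type list or genomic cluster with at least 4 entries, red called higher, blue called lower and grey not called, with a black bar at the list's median. The dotted line is the median of all 356 entries (-0.03), the miR-378 list lies lowest at -0.73 and the fibroblast list highest at 0.73.

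On the red cell list 2 of 6 entries (33.3%) were lower and 0 higher, beside 11.2% and 4.78% of all entries. The list's median log2 ratio was -0.49. MiR-451-5p, whose precursor matures without Dicer, had 653, 653 and 421 counts and a ratio of 0.507 (0.448 to 0.574). Its neighbour miR-144-3p had 412, 417 and 299 counts and a ratio of 0.571 (0.490 to 0.664). MiR-486-5p, which muscle makes as well, had 15246, 20051 and 16597 counts and was not called at 0.856. Nor were mmu-miR-486b-3p (0.740) and the 23 nt form of miR-144-5p (0.683), and the 22 nt form, hsa-miR-144-5p, lay at the control level with 11, 39 and 14 counts and a ratio of 1.00 (0.422 to 2.44). Partial matches of miR-486-5p, at 75962, 71941 and 61353 counts, were called lower at 0.635 (0.628 to 0.642). Those of mmu-miR-486b-3p had nearly the same counts, 75419, 71479 and 60875, and the same ratio, so they may not be a separate reading. Partial matches of both forms of miR-144-5p were not called at 0.839. The list's summed level was 3920 CPM in Cont and 3230 in HF-R, and its part in the other ratios was not tested.

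On the leukocyte list 1 of 6 entries (16.7%) was lower and 0 higher, beside 11.2% and 4.78% of all entries. The list's median log2 ratio was -0.37. The summed level of the list, scarcer entries included, was 695 CPM in Cont and 574 in HF-R. The 24 nt form of miR-146b-5p, which damps innate immune signalling, had 452, 387 and 339 counts and a ratio of 0.590 (0.511 to 0.681). The 22 nt form was not called, at 152, 126 and 166 counts and a ratio of 0.859 (0.685 to 1.08). MiR-150-5p, a lymphocyte miRNA, was lowest in HF, with 1065, 788 and 1008 counts and a ratio of 0.744. Hsa-miR-155-5p, a miRNA of activated leukocytes, had 716, 1105 and 1065 counts and lay above control at a ratio of 1.17 (1.06 to 1.29). Its partial matches, at 488, 743 and 1008 counts, were called higher at 1.62 (1.46 to 1.81).

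MiR-9-5p, known from neurons, had 390, 549 and 248 counts. On these counts HF-R alone was low, at a ratio of 0.50 (0.425 to 0.588). MiR-9-3p had a like ratio on few reads (17, 12 and 11 counts, 0.509, 0.215 to 1.15), with fewer counts in HF than in Cont although the HF library was the larger. Partial matches of miR-9-5p had 707, 580 and 574 counts, so that HF lay below Cont as well, and an HF-R/Cont ratio of 0.639 (0.571 to 0.714). The entry named hsa-miR-95-5p carries exactly these counts, while the tables of each library give miR-95-5p 269, 320 and 365, so its call rests on counts listed elsewhere for miR-9-5p.

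The imprinted DLK1-DIO3 region on chromosome 18, whose miRNAs come from the maternal allele, gave 48 entries (median log2 ratio -0.15). Of these 1 (2.08%) was higher and 4 (8.33%) lower, beside 4.78% and 11.2% of all entries. Oar-miR-127 had 1500, 668 and 1053 counts. HF-R lay between the others at a ratio of 0.552 (0.510 to 0.598), against 0.341 (0.311 to 0.374) for HF/Cont. Oar-miR-370-3p had 776, 523 and 573 counts and a ratio of 0.581 (0.520 to 0.648). The other lower entries were oar-miR-485-5p and oar-miR-665-3p, and the higher one was miR-382-3p. No direction is given for the region, since its median less that of all entries was -0.12 here and 0.07 when each deposited table was scaled to its own total.

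Other families gave few calls. Of 13 entries with the let-7 seed, a family that holds cells in the differentiated state, 12 had a ratio above 1 (median log2 ratio 0.21). Of all 356 entries 166 did. Some of the 13 are forms of the same miRNA, such as oar-let-7d and hsa-/mmu-/rno-let-7d-5p, so they are not all separate readings. The let-7 and miR-98 list of 22 entries, opposite arms included, had 15 ratios above 1 and 7 below. Of the 22, 1 (4.55%) was called higher and 2 (9.09%) lower, beside 4.78% and 11.2% of all entries. Let-7c-5p had 185479, 269632 and 265816 counts (ratio 1.13) and let-7i-5p 133361, 156455 and 180571 (ratio 1.06). The opposite arm let-7c-3p was lower, with 33, 46 and 19 counts and a ratio of 0.453 (0.243 to 0.820), but its partial matches had 41, 46 and 53 counts and a ratio of 1.02 (0.664 to 1.57). Let-7f-2-3p was called lower too, with 29, 18 and 20 counts and a ratio of 0.542, but its partial matches were at 0.848. Let-7a-1-3p (0.691), let-7d-3p (0.726) and let-7e-3p (1.40) were not called.

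All 4 entries with the seed of miR-99 and miR-100, which target mTOR, had a ratio below 1, beside 190 of all 356 entries. None of the 4 was called. Oar-miR-99a and hsa-/mmu-/rno-miR-99a-5p are forms of the same arm, so the 4 are not all separate readings. Oar-miR-99a had 380314, 522694 and 371713 counts (ratio 0.769), miR-99b-5p was at 0.740 and miR-100-5p at 0.707. Of the 12 entries of the miR-99, miR-100 and miR-125 list, 3 were called lower when each table was scaled to its own total. Under that scaling 54 of all 356 entries were. The growth-related miR-17-92 cluster and its paralogues gave 0 calls among 15 entries, beside 16% of all entries. Their median log2 ratio was 0.03. MiR-143-3p of smooth muscle had 477008, 507812 and 528280 counts and a ratio of 0.871. MiR-145-5p had 1872, 3618 and 2919 counts and a ratio of 1.23. Of the 7 entries of the smooth muscle and pericyte list, 4 had a ratio above 1 and 3 below, and 0 were called. The list's median log2 ratio was 0.20, while its summed level was 102111 CPM in Cont and 89132 in HF-R.

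Base composition, which the choice of entries did not use, moved with the ratios. The median GC content was 39.1% in the higher entries, 48.9% in the lower ones and 45.5% in all. Of 86 entries under 40% GC, 9 were higher and 5 lower (median log2 ratio 0.16). Of 136 entries at 50% GC or more, 3 were higher and 20 lower (median -0.22). With each ratio divided by the median of its GC class, an alternative chosen after the data were seen, 43 of the 57 calls held and 14 were lost, all of them lower calls. Over all entries 22 were then called higher and 31 lower, against 17 and 40 before. The lost calls included mmu-/rno-miR-378a-3p (0.70), miR-378d (0.675), miR-378b (0.668), miR-423-3p (0.743), miR-328-3p (0.726) and miR-30d-5p (0.744). The part of base composition in the ratios was not tested. The median length was 22 nt in the higher, the lower and all entries.

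The arms of a hairpin can be read against each other within the same libraries. Among 73 hairpins with both arms counted, 47 had both ratios on the same side of 1, and the median difference between arms was 0.36 on the log2 scale. Both arms were called in the same direction for 3 hairpins (miR-221, miR-214 and miR-181a), in opposite directions for 0, and 1 arm alone was called for 18. In 4 of these hairpins an entry carries the counts listed for another sequence. Without them, an alternative chosen after the data were seen, 44 of 69 hairpins had both ratios on the same side of 1, the median difference was 0.37, and 1 arm alone was called for 17. The largest difference was that of miR-10b, whose main arm had a log2 ratio of -0.70 and whose other arm, miR-10b-3p, had one of 0.75 on 7 counts in Cont and 15 in HF-R.

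Partial matches of the same reference sequence gave another reading of each perfectly matched entry, from the same libraries. They averaged 10 counts or more for 168 entries, of which 8 (4.76%) were called higher, 24 (14.3%) lower and 32 (19%) either way on these reads. Of the 28 called on perfect matches, 27 had a ratio on the same side of 1 and 14 had the same call, 2 of 5 higher and 12 of 23 lower. Of these 12, 4 are miR-378 entries (both forms of miR-378a-3p, miR-378d and miR-378b) whose partial matches are nearly the same reads, 134906 to 138480 in Cont, so they are not separate readings. The higher ones were miR-365a-3p at 1.68 and miR-214-3p at 1.85. MiR-128-3p was at 0.536 on 12362, 10158 and 8421 reads, miR-451-5p at 0.470 on 13212, 11161 and 7896, and miR-192-5p at 0.642 on 4115, 4036 and 3357.

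The entries not called on partial matches included miR-208a-3p (1.49), miR-221-5p (1.34), miR-214-5p (1.44), miR-328-3p (0.834), miR-146b-5p (0.900), miR-181a-3p (0.772) and miR-1307-3p (0.727). MiR-497-5p, of the growth-restraining miR-15 family, was uneven between its forms. The 21 nt form had 52, 38 and 27 counts and a ratio of 0.408 (0.247 to 0.662), and the 22 nt form had 78, 129 and 95 counts and a ratio of 0.958 (0.703 to 1.31).

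**Figure D5:**
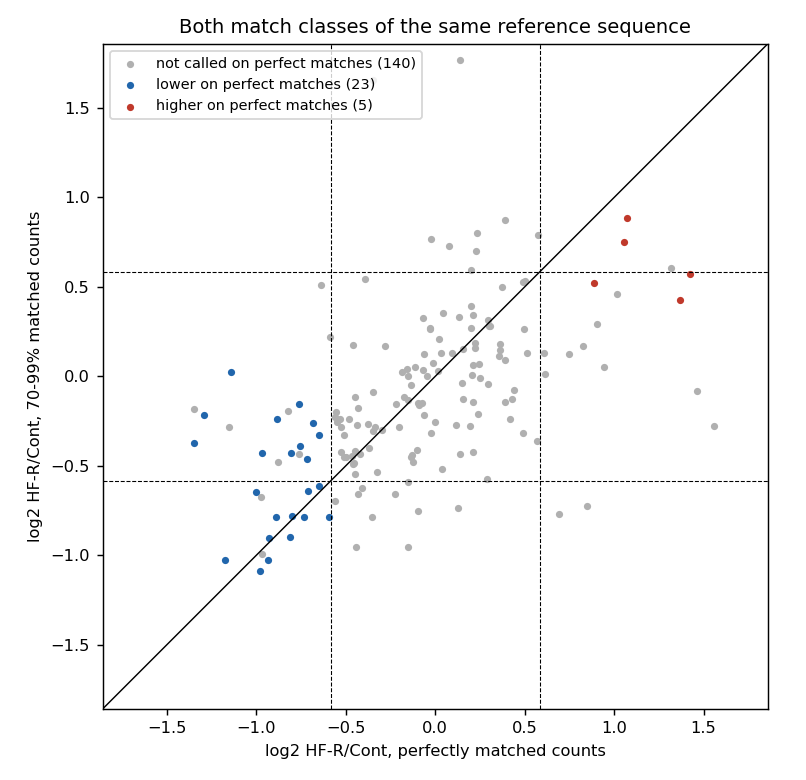
For 168 perfectly matched entries, the log2 HF-R/Cont ratio from 70 to 99% matched reads (vertical axis) is plotted against that from perfect matches (horizontal axis), coloured by the call on perfect matches, with the line of equality and dashed lines at 1.5-fold. Of 28 called entries, 27 lie on the same side of 0 on both axes and 14 pass the limits on both.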

How the data were processed

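Small RNA of pooled left ventricles was sequenced on the Illumina NextSeq 500, 1 library a condition. Reads of 15 to 30 nt were kept by the authors, compared with miRBase v21 by Blast and placed on Oar v4.0 by Bowtie (version not given in the sources used here). What the authors deposited are unscaled read counts for each miRNA, and a 70 to 99% match is read length over miRNA length. The deposited oar- counts differ from a list in the study's supplement for most entries, so the match class behind them is not certain.

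Of 636 entries, 15 that repeat the counts of an overlapping entry were removed, and 356 of the 621 left averaged 10 counts or more. A value not listed was taken as 0 in totals and left out of the mean, as in the deposited mean, and no entry that averaged 10 or more had one. CPM used the totals of all distinct entries, and intervals came from the binomial share of HF-R counts. A count of 0 allows up to 3 counts, or 0.637 CPM in Cont and 0.501 in HF-R. In the hsa-, mmu- and rno- table, 172 of 179 perfect and 78 of 83 partial matches had the counts of the library tables, and 8 carried those of another name. Blank cells of the library tables were left out. RefSeq names came from another build, so no coordinate of it was used.

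The entries, lists and named miRNAs were chosen with earlier results of these data known. The rule names called entries averaging 100 counts or more (15 at each end), all called ones averaging 1000 or more, the 10 most abundant, 5 called ones at each end of the scarcer entries, up to 6 of each list, seed groups and clusters of 3 or more, and miRNAs the study names. MiR-10b-3p, miR-382-3p and a few other scarce entries were named after their values were seen. Not every entry under the rule is given by value. Alternatives were scaling by TMM (edgeR 4.0.16) or size factors (DESeq2 1.42.0), other totals, raw counts, other filters, thresholds of 1.2 and 2, and match and GC classes. R 4.3.3, Python 3.11.15, scipy 1.17.1, pandas 2.3.3, numpy 2.4.6 and matplotlib 3.10.9 ran the rest. The intervals were tried on simulated counts that hold counting error only, so that trial says nothing of PCR copies or the spread between sheep.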

Additional observations from a re-analysis of the deposited data

Results flagged for a closer look

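A few entries averaged under 10 counts, and so lay outside the comparison, but had no count in Cont and more in HF-R than the 3 that a count of 0 allows. Mmu-miR-3074-2-3p had 6 counts in HF-R, hsa-miR-3201 and rno-miR-3589 had 5 each, and hsa-miR-1224-3p, hsa-miR-1277-3p and rno-miR-194-3p had 4 each. The other way round, with no count in HF-R, hsa-miR-4288 had 6 counts in Cont. Hsa-/rno-miR-98-3p and mmu-miR-669n had 5 each there, and mmu-/rno-miR-216a-3p had 4. All these counts lie close to that limit and carry counting error of their own.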

How the results depend on the processing

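No paired analysis was possible because each condition is 1 pooled library. Each value below stands beside 17 entries called higher, 40 called lower and a median log2 ratio of -0.03. With totals without miR-1, 28 were higher and 24 lower and the median was 0.10. Raw counts gave 71, 10 and 0.32. A mean of at least 100 counts left 5 higher and 24 lower, since fewer entries were tested. A size threshold of 1.2 gave 42 and 73, and one of 2 gave 10 and 8. Perfect matches alone gave 10 higher. The perfect-match tables of each library, where the name has a row, gave 4 higher and a median of -0.20. Chosen after the data were seen, the hsa-, mmu- and rno- table scaled to itself gave 8 higher and a median of -0.21, and the oar- table scaled to itself 8 higher, 4 lower and a median of 0.12. The other settings kept these counts within 1.5 times. Among single miRNAs, let-7c-3p turned to 1.02 on 70 to 99% matches, and miR-221-5p to 0.80 in the perfect-match tables, where its name also covers the 26 nt form. Of the 57 calls, 56 held with TMM, 49 with DESeq2's size factors, 41 without miR-1 and 27 with raw counts. Intervals cover counting error only, and the spread between sheep is unknown.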
